A study of Mus musculus with 12 samples.

Results

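The 8 genes of the AP-1 and BATF family were followed through the open chromatin of mouse CD4 T cell subsets: Batf and Batf3, the JUN genes Jun, Junb and Jund, and the FOS genes Fos, Fosb and Fosl2. Their regions were chosen by position alone. Overlapping peaks of the 12 ATAC-seq libraries (1 bp or more in common) were joined into regions, and a region was kept when its midpoint lay inside the RefSeq body of one of these genes or, outside gene bodies, when the nearest gene end within 50 kb was theirs. This gave 53 regions of 76882 in all, 12 inside gene bodies and 41 outside. They belonged to 7 of the 8 genes, because the domain over Jund has its midpoint in the neighbouring gene Iqcn and is described apart.

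ATAC-seq marks open chromatin by where the Tn5 transposase can insert into DNA. The libraries came from Balb/c mice of an age not given in the labels, in 6 groups of 2 libraries. CD4 T cells carrying the 6.5TCR, a T cell receptor that recognises influenza hemagglutinin (HA), had been transferred into Aire-HA hosts. Bone marrow subsets were sorted, the donor cells on day 14, while no day is listed for the host cells. The donor Treg group held transferred cells that had converted, sorted as CD25+LAP+ with CD45.2 and without CD45.1. The host pTreg group held CD25+CTLA4+Nrp1- cells that carried CD45.1 and CD45.2, and the host tTreg group their Nrp1+ counterparts. The iTreg group was induced in culture and sorted as CD25+LAP+, so it never passed through a host. The donor Tconv group held transferred CD25- cells that carried CD45.2 and not CD45.1. The host Tconv group held CD25- cells labelled CD45.1+CD45.2-, so the host regulatory and the host conventional cells differ in a congenic label besides the sort. The 4 regulatory groups gave 8 libraries and the 2 conventional groups 4. The labels do not say whether the 2 libraries of a group came from separate animals. The p-values thus measure only the spread between these libraries, which may be technical. Tests of regulatory against conventional libraries took each library as a separate unit and ignored the groups, so their n counts libraries. Libraries of the same group may be more alike than others, and no test was run with the group as the unit.

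AP-1 factors are pairs of basic leucine zipper proteins. JUN proteins pair with each other or with FOS proteins, and FOS proteins, which do not pair among themselves, need a JUN partner. Fos, Fosb and Jun are immediate early genes that are transcribed within minutes of T cell receptor signalling. BATF and BATF3 have a zipper but no activation domain of their own. They pair with JUN proteins and bind composite sites together with IRF4 or IRF8. BATF is required for effector and tissue regulatory T cell differentiation, BATF3 for a lineage of dendritic cells.

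The DNA around the start site shows what was open in every library and what in none. The 5 windows below run from 250 bases before to 50 bases after the RefSeq start in GRCm38.p6, which shares its coordinates with mm10. Batf, Jun and Fos are shown for a motif match, Fosb because its upstream DNA carries the one difference called over all 12 libraries, and Batf3 because no library had a peak there. Capitals mark motif matches.
Batf, chr12:85686470-85686769, plus strand: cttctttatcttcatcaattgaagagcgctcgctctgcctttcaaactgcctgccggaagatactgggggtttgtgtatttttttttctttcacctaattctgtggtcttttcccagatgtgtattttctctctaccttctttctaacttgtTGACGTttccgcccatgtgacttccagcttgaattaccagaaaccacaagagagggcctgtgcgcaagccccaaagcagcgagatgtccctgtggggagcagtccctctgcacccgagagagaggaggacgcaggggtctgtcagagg
Batf3, chr1:191098164-191098463, plus strand: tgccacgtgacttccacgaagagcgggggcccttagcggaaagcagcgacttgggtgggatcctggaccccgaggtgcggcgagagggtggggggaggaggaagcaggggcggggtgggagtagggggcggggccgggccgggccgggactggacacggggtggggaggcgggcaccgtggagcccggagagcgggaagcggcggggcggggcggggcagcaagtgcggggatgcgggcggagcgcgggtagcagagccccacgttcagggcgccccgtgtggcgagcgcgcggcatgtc
Jun, chr4:95052173-95052472, minus strand: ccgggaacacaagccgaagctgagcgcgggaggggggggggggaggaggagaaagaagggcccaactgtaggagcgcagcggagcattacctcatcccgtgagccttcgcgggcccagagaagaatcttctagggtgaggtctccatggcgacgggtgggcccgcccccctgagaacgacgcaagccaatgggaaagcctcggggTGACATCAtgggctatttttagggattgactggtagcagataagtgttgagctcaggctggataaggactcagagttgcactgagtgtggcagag
Fos, chr12:85473640-85473939, plus strand: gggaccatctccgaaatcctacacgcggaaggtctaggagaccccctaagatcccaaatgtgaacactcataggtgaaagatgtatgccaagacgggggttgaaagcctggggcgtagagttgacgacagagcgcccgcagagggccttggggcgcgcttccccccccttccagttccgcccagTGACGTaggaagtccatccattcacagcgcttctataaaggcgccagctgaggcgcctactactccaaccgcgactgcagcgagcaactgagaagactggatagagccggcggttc
Fosb, chr7:19309996-19310295, minus strand: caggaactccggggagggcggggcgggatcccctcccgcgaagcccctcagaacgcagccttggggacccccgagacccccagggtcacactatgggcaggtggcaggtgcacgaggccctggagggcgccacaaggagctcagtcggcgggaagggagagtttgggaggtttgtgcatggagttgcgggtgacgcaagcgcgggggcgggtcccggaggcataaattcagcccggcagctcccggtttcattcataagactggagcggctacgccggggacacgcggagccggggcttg
The start windows of Batf, Jun, Junb, Fos, Fosb and Fosl2 overlapped a peak in all 12 libraries. Those of Batf3 and Jund overlapped one in 0 of 12. Among the 27025 RefSeq windows of the same length, 33.3% had a peak in every library and 56.5% in none. All 8 genes matched the sequence table. On both strands, the letters TGACGT, the core of the cAMP response element, lay 98 bases upstream of the Batf start and 66 bases upstream of the Fos start, and 7.64% of all windows hold them. The letters TGACATCA, known as the Jun element, lay 45 bases upstream of the Jun start (3.76% of windows). The whole cAMP response element TGACGTCA (1.88% of windows), of which TGACGT is a part, the AP-1 site TGANTCA (7.93%) and the AP-1 and IRF composite element (0.122%) were in none of the 8 windows. The Batf3 window was 75.7% G or C, against 49.7% at Batf and 68.3% at Fosb.

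The lists differed in length. Regulatory libraries had 28394 to 63207 peaks over 16.9 to 42.6 Mb, and conventional libraries 37050 to 47193 peaks over 23.4 to 33.2 Mb. The iTreg lists were the longest, with 58357 and 63207 peaks, and the read depth behind a list is unknown. Donor Treg, donor Tconv and host Tconv libraries carry the run code BW13 in their names, the host Treg libraries DR31, and the iTreg libraries none. Library names also carry a number, at most 17000 in the in vivo regulatory libraries and 42000 to 50000 in the others, so for in vivo cells this number and the class cannot be told apart. All 10 CD4 T cell marker genes had a peak in each of the 12 libraries. Of the B cell markers Pax5 and Ebf1 were open in all and Cd79a in none, and of the 8 myeloid markers 2 (Itgam and Spi1) were open in all and 4 (Csf1r, Elane, S100a8 and S100a9) in none. Of 2 CD8, 4 erythroid and 3 NK cell markers, 0, 2 and 0 were open in all libraries. The part of other cells in the results was not tested.

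Over the 53 regions, 16 (30.2%) had a peak in all 12 libraries, against 27.9% of all regions, and 11 (20.8%) in a single library, against 14.9%. Each group's share with a peak in both its libraries was 34.0% in donor Treg (38.4% of all regions), 41.5% in host pTreg (39.5%), 35.8% in host tTreg (34.2%), 66.0% in iTreg (71.0%), 43.4% in donor Tconv (53.8%) and 37.7% in host Tconv (45.1%). The shares for the members lay close to those for all regions in both host Treg groups, and below them in donor Treg, iTreg and both conventional groups. These differences were not tested. In open bases per open Mb, that is, bases in peaks at these regions for each Mb in all peaks of the library, the 53 regions took 1326 ± 77.3 in donor Treg, 1674 ± 86.2 in host pTreg, 1581 ± 106 in host tTreg, 980.5 ± 20.9 in iTreg, 1079 ± 62.1 in donor Tconv and 1108 ± 20.6 in host Tconv (SD, n = 2 each). This share divides by the length of the list, which was 16.9 to 25.8 Mb in the in vivo regulatory libraries and 23.4 to 42.6 Mb in the others.

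**Figure D1:**
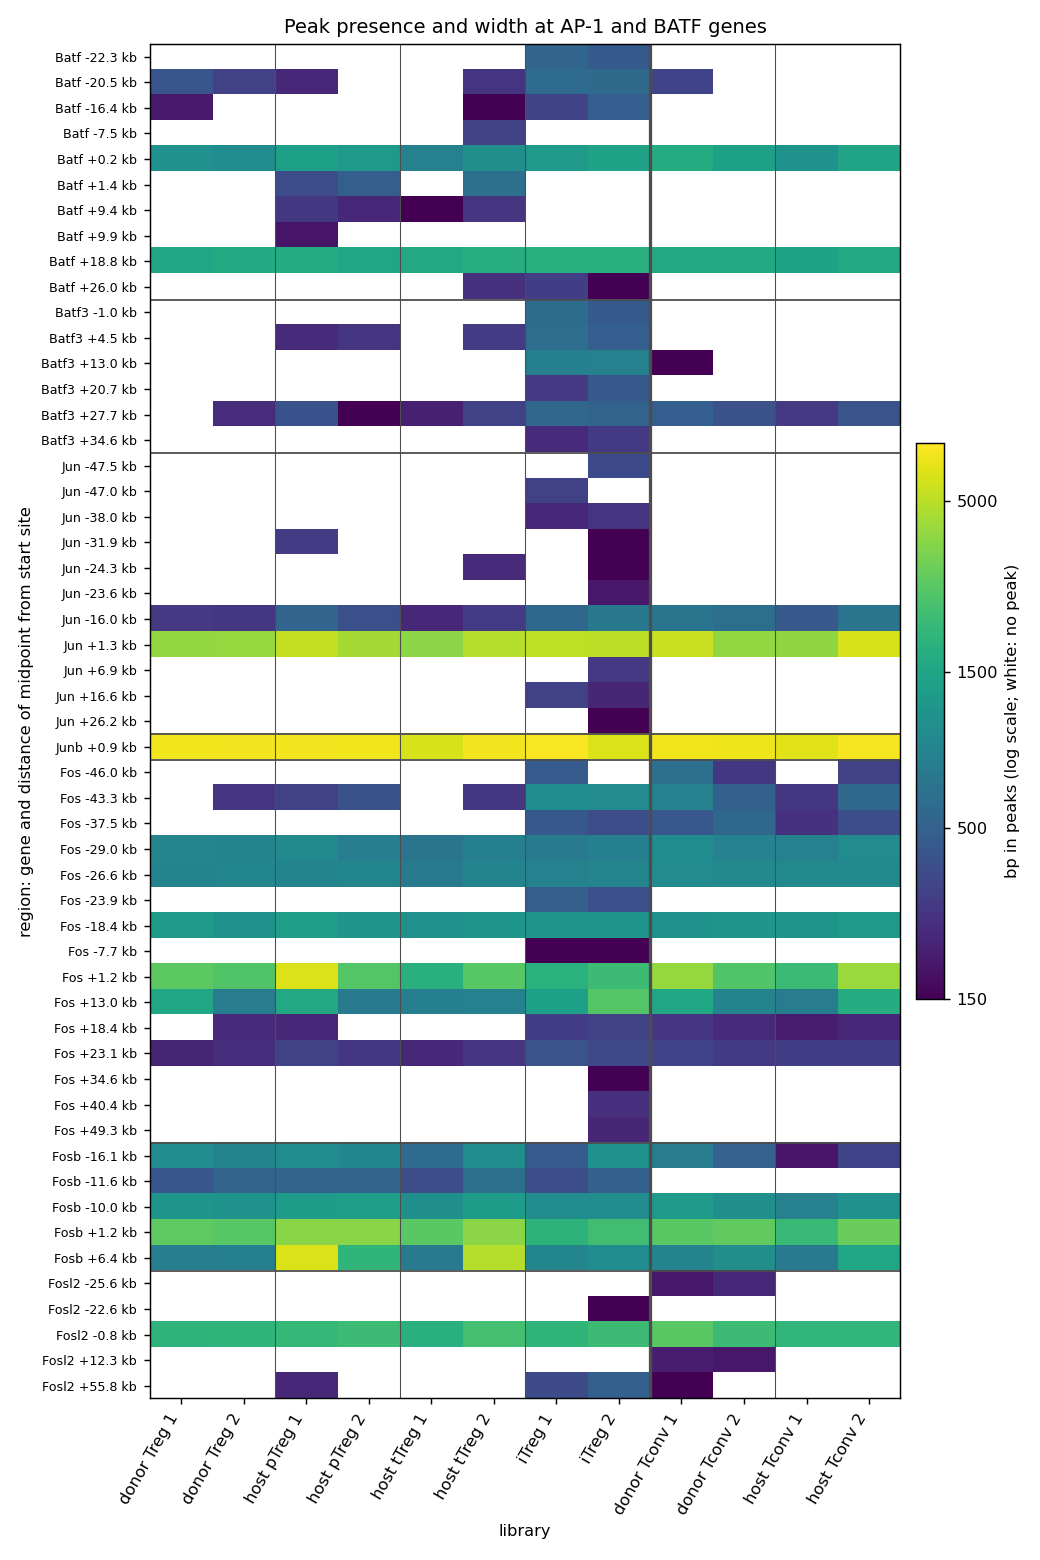
Bases in peaks (colour, log scale, white for no peak) at the 53 regions, named by gene and by the distance of the midpoint from the start site in kb, in each of the 12 libraries, with a heavy line between the 8 regulatory and the 4 conventional libraries. The row of Fosb 11.6 kb upstream is filled in the 8 regulatory libraries and white in the 4 conventional ones. In iTreg libraries alone 17 rows are filled (32.1%, against 26.6% of all regions).

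Regulatory against conventional libraries is the comparison that was tested. Each region was tested for presence with a two-sided Fisher's exact test, adjusted by Benjamini-Hochberg over 18887 regions, those open in neither too few nor too many libraries for p to fall under 0.05. Of 11 testable member regions 1 was called more often open in regulatory libraries, where 1.39% of testable regions were called, and 0 in conventional libraries, where 4.98% were. No other member region had an unadjusted p under 0.05. The called region belongs to Fosb, which encodes a FOS protein with an activation domain that is made upon stimulation.

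The Fosb region lies 11.6 kb upstream of the start site (chr7:19321327-19321976, mm10), outside any gene body. Its peaks were 430 and 527 bp wide in donor Treg, 537 and 540 bp in host pTreg, 377 and 637 bp in host tTreg and 385 and 505 bp in iTreg, while donor Tconv and host Tconv had no peak there. All 8 regulatory libraries thus had a peak and none of the 4 conventional ones (Fisher's exact p = 0.00202, adjusted p = 0.0317, n = 8 and 4). These are libraries from 4 and 2 groups, and the test ignored the groups. In bulk samples, fewer cells with the region open and less opening per cell cannot be told apart, and a list shows only what passed peak calling. Of all 76882 regions 0.342% had this pattern. The call ended (adjusted p 0.0519 to 0.0664) when any 1 library of donor Treg, host pTreg, host tTreg or donor Tconv, or host Tconv replicate 2, was left out, while the direction stayed. A cut to equal list length kept the widest peaks of each library, and the shares of libraries with a peak then differed by 0.875. The call also ended there (Fisher's exact adjusted p = 0.0639). Without iTreg it held (6 against 0, adjusted p = 0.0193 by the exact test) and was not lost with any 1 library left out. Within run code BW13 both donor Treg libraries had the peak and 0 of 4 conventional ones, a design that cannot go below an exact p of 0.0667.

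The other 4 Fosb regions were open in all 12 libraries and differed in width. The region 16.1 kb upstream (chr7:19325655-19326729) covered 998 and 871 bp in donor Treg, 1004 and 927 bp in host pTreg, 585 and 1027 bp in host tTreg and 467 and 1075 bp in iTreg. In donor Tconv it covered 774 and 513 bp and in host Tconv 189 and 332 bp. Host Tconv was narrower than every other library, and iTreg and host tTreg overlapped donor Tconv. The mean was 869 bp in regulatory and 452 bp in conventional libraries, a difference of 1.24 on the log2 scale after centring each library on its median width, with an unadjusted exact permutation p of 0.00606 and an adjusted p of 0.097.

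The region that covers the Fosb start (midpoint 1.2 kb inside the gene) was 2841 and 2700 bp wide in donor Treg, 3768 and 3735 bp in host pTreg, 2747 and 3784 bp in host tTreg and 1890 and 2251 bp in iTreg, against 2741 and 2882 bp in donor Tconv and 2132 and 3070 bp in host Tconv. The region over the 3' end, 6.4 kb from the start, reached 6133 and 1953 bp in host pTreg and 753 and 4847 bp in host tTreg. It was 797 and 814 bp in donor Treg and 910 and 1004 bp in iTreg, against 863 and 1040 bp in donor Tconv and 765 and 1500 bp in host Tconv. The wide values thus came from 3 of the 4 host Treg libraries, and host tTreg replicate 1 was the narrowest of the 12.

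Summed over its regions, Fosb took 317 ± 145 open bases per open Mb in regulatory and 175 ± 8.01 in conventional libraries (SD, n = 8 and 4), with an adjusted exact permutation p of 0.322. The share was 273 ± 19.4 in donor Treg, 453 ± 59.4 in host pTreg, 412 ± 120 in host tTreg and 130 ± 10.3 in iTreg, against 175 ± 8.99 in donor Tconv and 174 ± 10.5 in host Tconv. Per open Mb, the 6 in vivo regulatory libraries lay above all 4 conventional ones and both iTreg libraries below them. How many genes show this order was not counted. In bases as called it did not hold. iTreg had 4680 and 5858 bp and host tTreg replicate 1 had 5513 bp, within the conventional range of 3906 to 5982 bp. As called, regulatory minus conventional was 2396 bp (adjusted exact permutation p = 0.667). Without iTreg the means per open Mb were 379 ± 104 and 175 ± 8.01, with an adjusted p of 0.0532. As called they were 8430 ± 3092 bp and 5244 ± 917 bp (adjusted exact permutation p = 0.115).

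**Figure D2:**
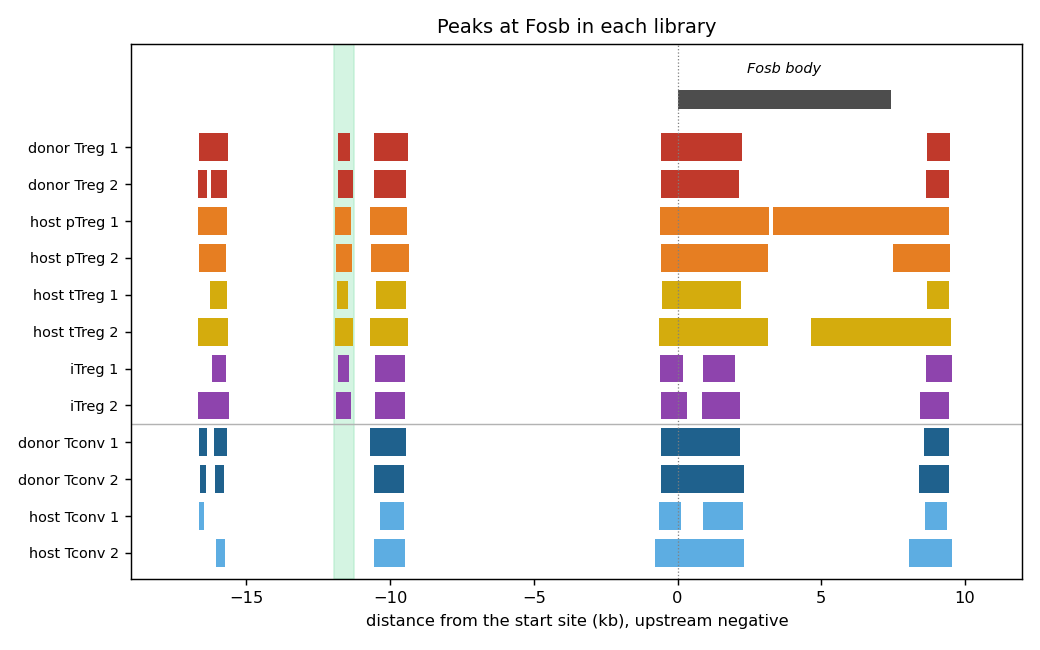
Peaks at Fosb in each library (bars, one row per library, coloured by group), by distance from the start site in kb, with the gene body in grey and the region 11.6 kb upstream shaded. The shaded region holds a bar in each of the 8 regulatory libraries above the grey line and in 0 of the 4 conventional ones below it.

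Batf had 10 regions, of which 2 were open in all 12 libraries: one over the start (chr12:85686042-85687698) and one 18.8 kb inside the gene (chr12:85704585-85706396). The start region was 1079 and 1010 bp wide in donor Treg, 1364 and 1218 bp in host pTreg, 840 and 1049 bp in host tTreg and 1219 and 1418 bp in iTreg, against 1657 and 1384 bp in donor Tconv and 1122 and 1468 bp in host Tconv. The region at 18.8 kb spanned 1508 to 1778 bp in regulatory and 1456 to 1624 bp in conventional libraries. Neither width passed the test (adjusted exact permutation p = 0.460 and 0.262).

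Inside Batf, 3 regions were open in host Treg libraries alone, 2 of them in more than 1 library. The region 9.4 kb from the start (chr12:85695943-85696267) had peaks of 284 and 234 bp in host pTreg and 150 and 275 bp in host tTreg, and none in the other 8 libraries. Only 0.118% of all regions were open in all 4 host Treg libraries and no other. The region 1.4 kb from the start (chr12:85687740-85688517) had 379 and 492 bp in host pTreg and 639 bp in host tTreg replicate 2. The region 9.9 kb from the start had its one peak, of 187 bp, in host pTreg replicate 1. In all, 2 of 53 member regions were open in at least 2 host Treg libraries and nowhere else, against 0.947% of all regions. These libraries share the run code DR31, which no other group carries, so group and run cannot be told apart. Over all 8 regulatory against the 4 conventional libraries, Fisher's exact adjusted p was 0.455 at 9.4 kb and 0.730 at 1.4 kb, and with iTreg left out 0.122 and 0.252. Host Treg alone against conventional libraries was not tested.

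Upstream of Batf the peaks lay mostly in regulatory libraries. The region 20.5 kb upstream had 421 and 321 bp in donor Treg, 235 bp in host pTreg replicate 1, 270 bp in host tTreg replicate 2 and 585 and 579 bp in iTreg, against 329 bp in donor Tconv replicate 1 and none in the other 3 conventional libraries. The region 16.4 kb upstream had 198 bp in donor Treg replicate 1, 150 bp in host tTreg replicate 2 and 337 and 481 bp in iTreg, and none in conventional libraries. Both had an adjusted Fisher's exact p of 0.455. With iTreg left out, the region 20.5 kb upstream was open in 4 of 6 regulatory and 1 of 4 conventional libraries (adjusted Fisher's exact p = 0.595). The region 16.4 kb upstream, at 2 of 6 and 0 of 4, could not be tested there. The region 22.3 kb upstream was open in iTreg alone, at 536 and 455 bp.

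In open bases per open Mb, Batf stood at 148 and 128 in donor Treg, 161 and 167 in host pTreg, 153 and 201 in host tTreg and 125 and 113 in iTreg, against 107 and 99.6 in donor Tconv and 110 and 92.6 in host Tconv. Every regulatory library lay above every conventional one, but how many genes separate in this way was not counted. The means were 149.7 ± 27.9 and 102 ± 7.90 (SD, n = 8 and 4), a ratio of 1.46, and the exact permutation test gave p = 0.0101 but an adjusted p of 0.103 over 15841 genes. Counted in bases as called, without the division, regulatory minus conventional was 781 bp (adjusted exact permutation p = 0.644). Within run code BW13, donor Treg minus the 4 conventional libraries was 35.8 open bases per open Mb for Batf and 98.5 for Fosb, with no p under 0.0667 possible by the exact test.

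Over these gene sums, 0 of the 7 members with regions passed the adjusted test in either direction, where 1.87% of genes were called higher and 3.43% lower in regulatory libraries. At an unadjusted p under 0.05 it was 1 member (Batf), against 19.4% of genes. Of the 16 member regions open everywhere, 0 widths passed, as in 0 of all 21435 (0.0%), and 2 had an unadjusted p under 0.05, against 18.8%.

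With the iTreg libraries left out, 2 members were called higher in the 6 in vivo regulatory libraries than in the 4 conventional ones, Batf and Junb, where 11.0% of genes were called higher and 11.6% lower. Batf took 160 ± 24.1 and 102 ± 7.90 open bases per open Mb (SD, n = 6 and 4; adjusted exact permutation p = 0.0275). In bases as called it covered 3512 ± 777 bp and 3052 ± 406 bp, with an adjusted exact permutation p of 0.386. In bases as called 0 members were called either way by this test, where 1.26% of genes were called higher and 37.0% lower. The call for Batf ended in 8 of 10 cases when 1 library was left out (adjusted p 0.0428 to 0.0671).

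Widths gave 4 in vivo calls after centring, all wider in regulatory libraries (adjusted exact permutation p = 0.0453 each), where 6.58% of regions open everywhere were called wider and 3.93% narrower. They were Batf at 18.8 kb (1615 ± 87.9 bp and 1562 ± 73.1 bp), Fosb 10.0 kb upstream (1208 ± 117 bp and 1044 ± 169 bp), Fosb 16.1 kb upstream (902 ± 166 bp and 452 ± 252 bp) and the Junb domain (SD, n = 6 and 4). As called, 0 members were wider (0.821% of regions) and 1 was narrower (9.79%), the Fos region 26.6 kb upstream, at 867 ± 51.5 bp and 968 ± 17.3 bp (adjusted exact permutation p = 0.0449). All 4 calls of wider regions ended with any 1 library left out.

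**Figure D3:**
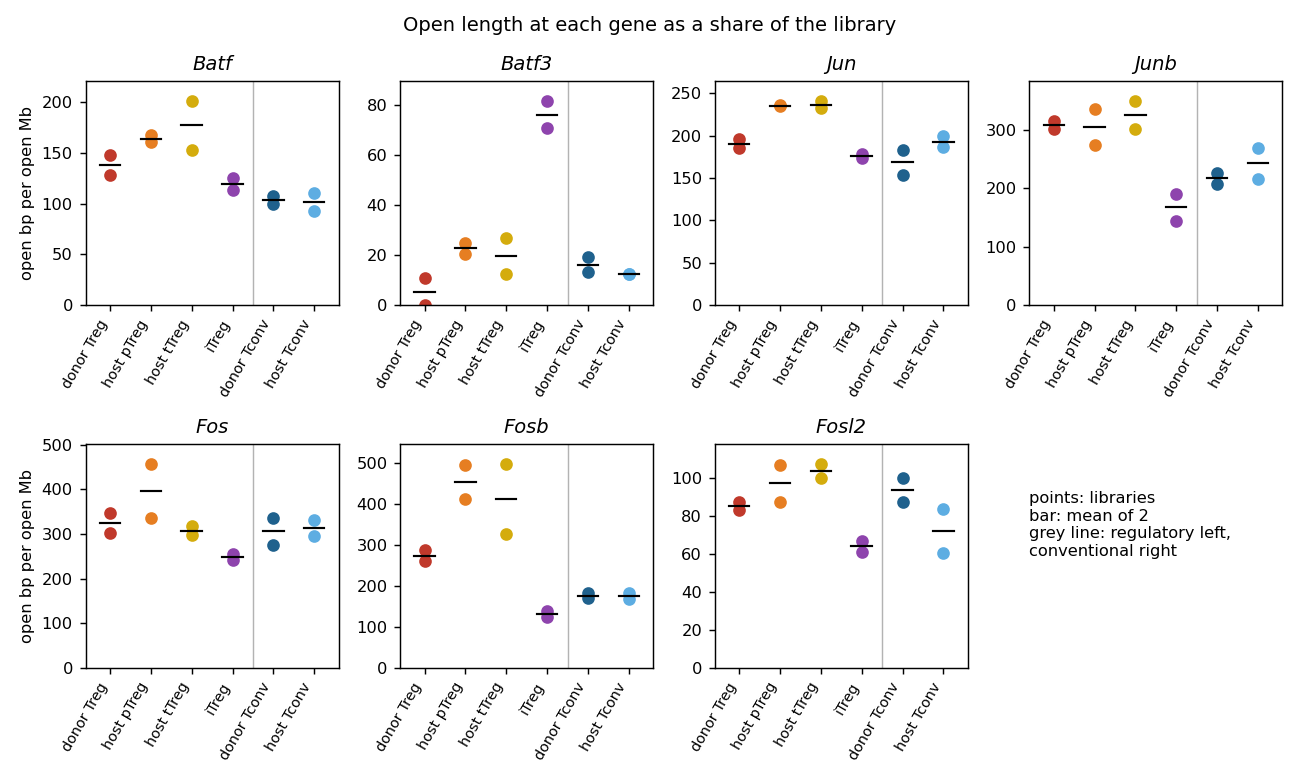
Open bases per open Mb of the library (y axis, from 0) at each of the 7 genes with regions, by group (x axis), with a point per library, a bar at the mean of 2 libraries and a grey line between regulatory and conventional groups. Batf is higher in all 8 regulatory libraries (113 to 201) than in the 4 conventional ones (92.6 to 110), and Batf3 is high in the 2 iTreg libraries (81.4 and 70.7).

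Batf3 differed from Batf in that its start had no peak. All 6 of its regions were open in both libraries of culture-induced cells, as were 71.0% of all regions. Of the 6, 3 were open nowhere else, as were 16.5% of all regions. The 2 iTreg libraries had 3094 and 3012 bp in peaks at Batf3, and the other 10 libraries 0 to 640 bp. In open bases per open Mb this was 81.4 and 70.7 in iTreg, 0 and 10.6 in donor Treg, 24.9 and 20.3 in host pTreg and 12.4 and 26.6 in host tTreg, against 19.0 and 13.0 in donor Tconv and 12.2 and 12.4 in host Tconv. Both iTreg libraries stood above the rest, also after division by their longer lists, but how many genes show this order was not counted. The test of all 8 regulatory libraries gave an adjusted exact permutation p of 0.590, with means of 30.9 ± 29.3 and 14.1 ± 3.26.

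Of the 3 regions open in iTreg alone, the nearest to the start lies 1.0 kb upstream (chr1:191097105-191097752; 598 and 452 bp), and the others lie 20.7 kb (285 and 448 bp) and 34.6 kb downstream of the start (239 and 291 bp). The region at 13.0 kb had 817 and 819 bp in iTreg and 150 bp in donor Tconv replicate 1. The region at 4.5 kb inside the gene had 239 and 269 bp in host pTreg, 299 bp in host tTreg replicate 2 and 610 and 482 bp in iTreg, and none in donor Treg or any conventional library (adjusted Fisher's exact p = 0.295). At 27.7 kb, 11 of 12 libraries had a peak, all but donor Treg replicate 1.

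**Figure D4:**
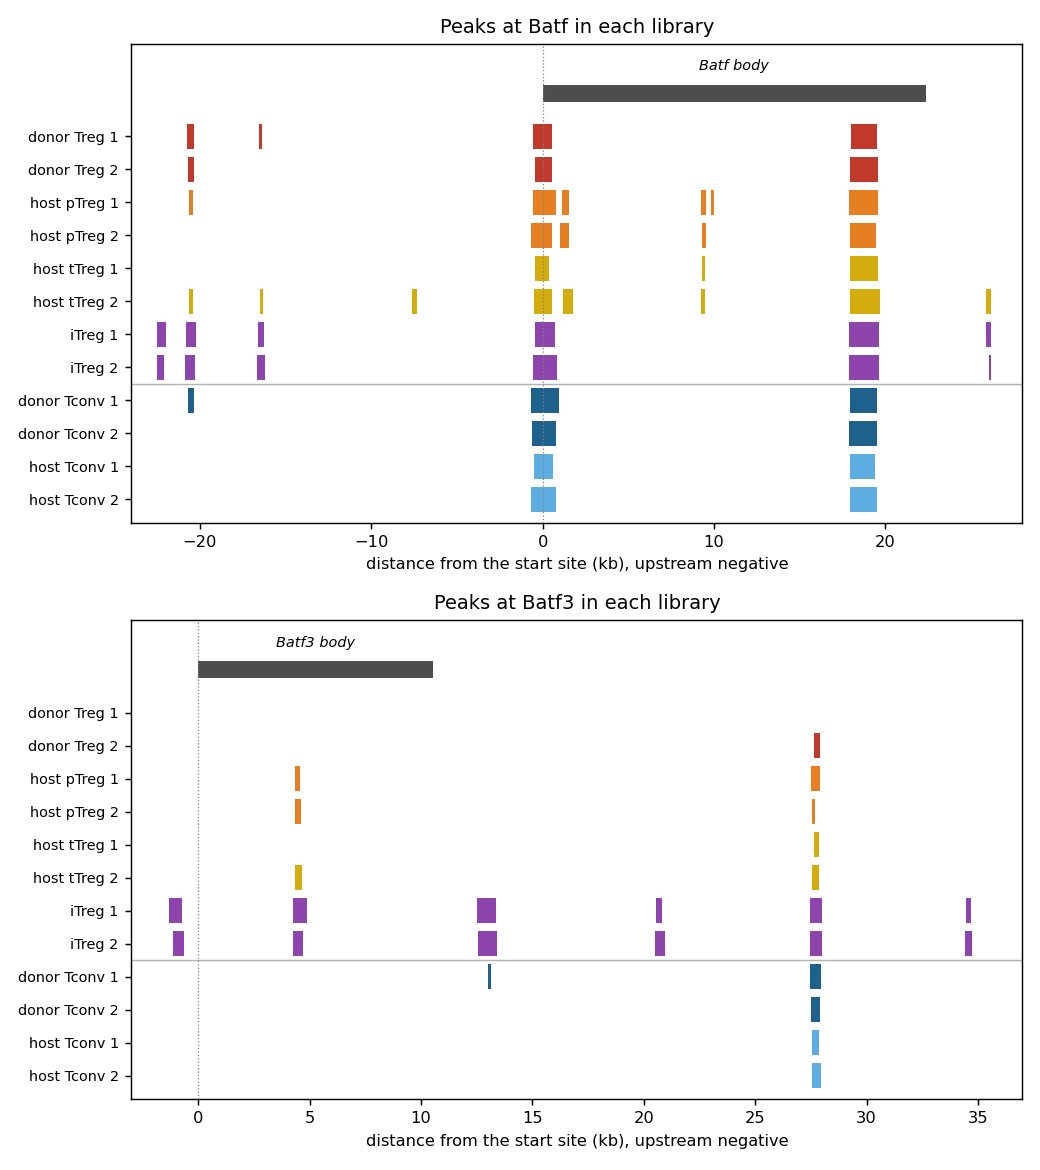
Peaks at Batf (upper panel) and Batf3 (lower panel) in each library (bars, coloured by group), by distance from the start site in kb, with the gene body in grey. In Batf the 4 host Treg rows alone carry a bar at 9.4 kb, and at Batf3 the 2 iTreg rows carry the most bars.

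The JUN genes, whose proteins are the obligate partners of FOS and BATF proteins, were covered by wide domains in every library. Junb, which encodes the partner that BATF commonly uses in T cells, had a single region (chr8:84974162-84981452). It was 6850 and 6999 bp wide in donor Treg, 7055 and 6929 bp in host pTreg, 5883 and 7050 bp in host tTreg and 7221 and 6136 bp in iTreg, against 6903 and 6812 bp in donor Tconv and 6296 and 7130 bp in host Tconv. The groups overlapped, with means of 6765 and 6785 bp over regulatory and conventional libraries (adjusted exact permutation p = 0.542 for the centred width). Without iTreg, Junb was called higher per open Mb, at 313 ± 26.7 and 230 ± 27.0 (adjusted exact permutation p = 0.0275), while in bases as called it had 6794 ± 453 bp and 6785 ± 353 bp (adjusted p = 0.991). The call, made after division by the list length and not in bases as called, ended in 6 of 10 cases with 1 library left out (adjusted p 0.0401 to 0.0658).

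Jun had 11 regions. The domain over the gene (chr4:95047777-95054089) averaged 4651 bp over the 12 libraries, wider than 99.9% of regions open everywhere. It measured 3959 and 4016 bp in donor Treg, 5227 and 4458 bp in host pTreg, 3822 and 4886 bp in host tTreg and 5165 and 5059 bp in iTreg, against 5406 and 4008 bp in donor Tconv and 3913 and 5898 bp in host Tconv. The groups overlapped (adjusted exact permutation p = 0.607). The region 16.0 kb upstream was 289 and 284 bp wide in donor Treg, 539 and 387 bp in host pTreg, 232 and 302 bp in host tTreg and 555 and 724 bp in iTreg, against 683 and 613 bp in donor Tconv and 445 and 674 bp in host Tconv. Donor Treg and host tTreg lay below all conventional libraries, iTreg did not, and the difference was -0.46 on the centred log2 scale (exact permutation p = 0.0424, adjusted p = 0.243). The other 9 regions were each open in 1 or 2 libraries, 5 of them in a single one, and every one of them in at least 1 iTreg library. The iTreg lists were the longest, and 26.6% of all regions were open in iTreg libraries alone. Jun as a whole took 209 ± 28.9 and 180 ± 19.6 open bases per open Mb in regulatory and conventional libraries (adjusted exact permutation p = 0.404).

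Jund, expressed at steady levels in many cells, lies under a domain (chr8:70697905-70705049) that begins just inside the gene and runs on into Iqcn. It covered 82.6% to 94.2% of the Jund body in regulatory libraries (median 91.3%) and 88.5% to 92.7% in conventional libraries (median 89.9%). The peaks in the domain summed to 2376 to 5567 bp in regulatory libraries (median 5203 bp) and 5642 to 7101 bp in conventional libraries (median 5986 bp). These ranges did not overlap, but how many regions open everywhere separate in this way was not counted. On the centred log2 scale, which adjusts for the library's typical width, the difference was -0.31 (exact permutation p = 0.358, adjusted p = 0.632), and 0.0% of regions open everywhere were called.

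Fos, an immediate early gene, had 15 regions. Of these, 6 were open in all 12 libraries, at 29.0, 26.6 and 18.4 kb upstream and at 1.2, 13.0 and 23.1 kb downstream of the start. The domain over the gene (chr12:85472025-85478171) was 2818 and 2579 bp wide in donor Treg, 6147 and 2652 bp in host pTreg, 1785 and 2696 bp in host tTreg and 1818 and 2177 bp in iTreg, against 4024 and 2605 bp in donor Tconv and 2166 and 4195 bp in host Tconv. The groups overlapped, and 1 host pTreg library was the widest (adjusted exact permutation p = 0.921). Per open Mb, Fos took 319 ± 66.5 and 309 ± 29.3 in regulatory and conventional libraries (adjusted exact permutation p = 0.926), and the mean was the other way round in bases as called, by -1128 bp.

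At Fos, 2 distal regions with peaks in conventional libraries had none in any in vivo regulatory library. A further 5 of the 15 Fos regions were open in iTreg libraries alone, as were 26.6% of all regions. The region 37.5 kb upstream (chr12:85436116-85436722) had 442 and 379 bp in iTreg, 435 and 561 bp in donor Tconv and 263 and 382 bp in host Tconv, and no peak in donor Treg, host pTreg or host tTreg. Over in vivo cells it was open in 0 of 6 regulatory and 4 of 4 conventional libraries (Fisher's exact p = 0.00476, adjusted p = 0.0193, n = 6 and 4), a pattern called for 21.4% of testable regions. It was still called with any 1 of the 10 libraries left out (adjusted p 0.0261 to 0.0373). Of the 8 member regions testable in vivo it was the one called in this direction, and the Fosb region 11.6 kb upstream the one called the other way (3.36% of testable regions). With iTreg included the region could not be tested, since 2 of 8 and 4 of 4 libraries cannot reach an unadjusted p under 0.05. The region 46.0 kb upstream had 469 bp in iTreg replicate 1, against 628 and 281 bp in donor Tconv and 321 bp in host Tconv replicate 2 (adjusted Fisher's exact p = 0.295).

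Fosl2, which encodes a FOS protein without a transactivation domain, had 5 regions. The region over the start was open everywhere, with 1810 to 2336 bp in regulatory libraries and 1964 to 2768 bp in conventional ones (adjusted exact permutation p = 0.875). The regions 25.6 kb upstream (192 and 233 bp) and 12.3 kb inside the gene (203 and 192 bp) were open in both donor Tconv libraries and no other, as were 0.553% of all regions. The region 55.8 kb from the start had 231 bp in host pTreg replicate 1 and 368 and 499 bp in iTreg, against 150 bp in donor Tconv replicate 1.

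**Figure D5:**
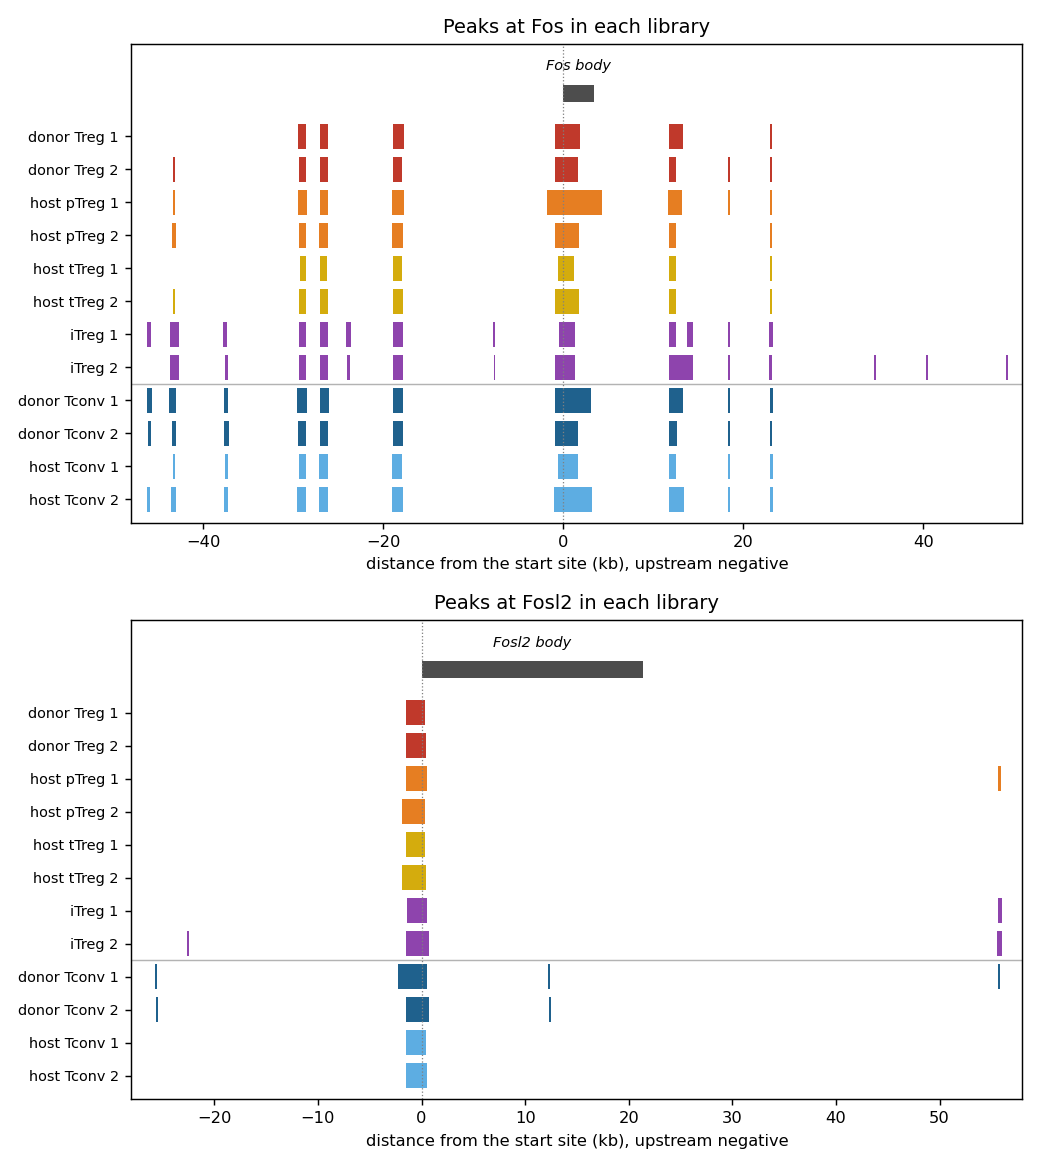
Peaks at Fos (upper panel) and Fosl2 (lower panel) in each library (bars, coloured by group), by distance from the start site in kb, with the gene body in grey. At 37.5 kb upstream of Fos the rows of iTreg, donor Tconv and host Tconv carry bars and the 6 rows of donor Treg, host pTreg and host tTreg carry none.

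The paired groups were set side by side by counting member regions open in a whole group (both its libraries) and closed in both libraries of its partner. The percentages beside them are shares of all regions with a peak in either group of the pair. With 2 libraries against 2 no exact test can go below 0.333, so these are counts without a test. Between converted and unconverted donor cells, 28 member regions had a peak in either group. In donor Treg alone 1 was open, against 2.41% of all regions open in the pair, namely Fosb 11.6 kb upstream. In donor Tconv alone 4 were open, against 19.9%, namely Fos 46.0 and 37.5 kb upstream and the Fosl2 pair. With lists cut to equal length the counts turned round, to 3 in donor Treg alone and 1 in donor Tconv alone. The 4 became 7 without donor Treg replicate 2, and the 1 became 2 without donor Treg replicate 2 or donor Tconv replicate 1.

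Between donor and host conventional cells, 26 member regions had a peak. The Fosl2 pair was open in donor Tconv alone (2 regions, against 4.4% of regions open in the pair) and 0 in host Tconv alone (0.557%). The 2 became 0 with peaks of at least 300 bp, 1 with lists cut to equal length and 5 without donor Tconv replicate 2. Between the host regulatory groups, of 31 member regions 0 were open in host pTreg alone (3.35%) and 0 in host tTreg alone (0.452%). Without host pTreg replicate 2 it was 4 in host pTreg alone, without host tTreg replicate 2 it was 3, and without host tTreg replicate 1 it was 4 in host tTreg alone.

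Between iTreg and donor Treg, 47 member regions had a peak. In iTreg alone 13 were open, against 34.7% of regions open in the pair, and in donor Treg alone 0, against 2.92%. The 13 became 23 without iTreg replicate 1. Both iTreg libraries and no other had a peak at 8 of 53 member regions (15.1%), against 16.5% of all regions. At least 1 iTreg library and no other had one at 17 (32.1%), against 26.6%. With lists cut to equal length, which keeps only the widest peaks, the 13 became 1 and the 0 became 1.

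The other genes of the pathway were taken from lists. Of 14 further bZIP genes of the AP-1 and Maf type, 1 took a higher and 2 a lower share of open bases in regulatory libraries after adjustment, beside 1.87% higher and 3.43% lower over all genes. An unadjusted p under 0.05 was found for 7 of the 14, beside 19.4% of all genes. Jdp2, a repressor that pairs with JUN proteins, took 215 ± 21.7 and 161 ± 17.6 open bases per open Mb in regulatory and conventional libraries. Bach1, a Maf partner that represses its targets, took 206 ± 20.2 and 275 ± 15.3, and Atf7, a CREB/ATF factor, 68.3 ± 6.97 and 91.0 ± 5.91 (adjusted exact permutation p = 0.0381 for each of these genes). Of 3 MAP kinase phosphatase genes 1 was higher, Dusp4, at 240 ± 22.2 and 159 ± 13.2 (adjusted exact permutation p = 0.0381). In bases as called the direction was the same for all 4 genes and none was called (adjusted p 0.869, 0.423, 0.460 and 0.655 in the order named).

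Of the 2 IRF partners of BATF, the 8 MAP kinase genes, the 3 activators of Fos transcription and the 9 genes of the tissue regulatory T cell programme, 0 were called by the exact permutation test, and 1, 1, 0 and 3 had an unadjusted p under 0.05 (19.4% of all genes). The median of regulatory minus conventional was 29.0 open bases per open Mb over the members, 3.64 over the other bZIP genes, 22.2 over the IRF partners, -2.91 over the MAP kinases, 81.1 over the phosphatases, 8.50 over the activators and 51.3 over the tissue programme, beside 1.87 over all genes. Of 68 testable regions of these lists, Fisher's exact test called 2 more often open in regulatory and 6 in conventional libraries (adjusted p = 0.0317 each), beside 1.39% and 4.98% of all testable regions. Regions of Jdp2, in the space between Jdp2 and Batf (chr12:85640462-85641464), and of Areg, a growth factor gene, were open in 8 regulatory and 0 conventional libraries. Regions of Irf4, Atf2, Bach2, Dusp6 and 2 of Bach1 were open in 0 regulatory and 4 conventional libraries.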

How the data were processed

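The deposited files are 1 peak list per ATAC-seq library, 12 in all, in BED form. The submitters' processing notes name mm10 and the tools HOMER 4.10, Bowtie2 2.3.3 and bedtools; what each did, and whether reads were shifted for the transposase, is a detail that the sources used here do not give. The authors gave every peak a score of 1000, which was not used. The start and end coordinates deposited by the authors are the measurement, with no peak under 150 bp. Read counts were not used here, so depth is unknown and no counting interval can be given.

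Groups come from the sample titles. Peaks overlapping by 1 bp or more were merged, and 89.9% of regions were assigned to a gene of a GRCm38.p6 RefSeq table by midpoint, else by the nearest gene end within 50 kb. Presence was tested with Fisher's exact test, and open bases per open Mb per gene, and centred log2 peak width of regions open in all libraries, with exact permutation tests (495 arrangements, smallest p 0.00202), all two-sided and adjusted by Benjamini-Hochberg at 0.05 over all regions or genes tested. The tests were also run on these data after shuffling the libraries within each region or gene and adding large known changes to some of them. Smaller changes were not tried. Alternatives were equal list length, peaks of at least 300 bp, joining peaks within 100 bp, a 10 kb limit and bases as called. Further ones were run code BW13, iTreg left out, a replicate block and each library left out. Equal list length kept the widest peaks of each library, as many as the shortest list holds. It thus removed the narrower peaks of the longer lists. An alternative with regions that overlap a member by any base was added after the data had been seen. All members, the other genes called in the lists and, by correlation, the 2 most alike genes with at least 3 regions are named. The members and lists were chosen with earlier results of these data known. The result of 1 marker gene is not reported here. Libraries shared at most 0.0517% identical peaks. Python 3.11.15, numpy 2.4.6, pandas 2.3.3, scipy 1.17.1 and matplotlib 3.10.9 were used.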

Additional observations from a re-analysis of the deposited data

Results flagged for a closer look

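In open bases per open Mb, Batf3 moved in opposite directions in donor and host cells, in every library. In bases as called the host order did not hold in every library. Host tTreg replicate 1 had 210 bp, below host Tconv at 285 and 407 bp. Host pTreg had 640 and 419 bp and host tTreg replicate 2 had 620 bp. As called, donor Treg had 0 and 246 bp and donor Tconv 631 and 394 bp. Donor Treg minus donor Tconv was -10.7 open bases per open Mb (5.31 ± 7.50 in donor Treg, 16.0 ± 4.21 in donor Tconv; SD, n = 2 each). Host Treg minus host Tconv was 8.78 (22.6 ± 3.22 in host pTreg and 19.5 ± 9.98 in host tTreg, against 12.3 ± 0.134 in host Tconv), although host tTreg replicate 1 exceeded host Tconv replicate 2 by little (12.45 and 12.35). The difference between these 2 contrasts was not tested, and the host contrast crosses the run codes DR31 and BW13 while the donor contrast does not.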

How the results depend on the processing

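With lists cut to equal length, the member regions called in regulatory libraries became 0, those in donor Treg alone 3 and in donor Tconv alone 1, those in donor Tconv alone against host Tconv 1, and those in iTreg alone and in donor Treg alone of that pair 1 each. With peaks of at least 300 bp, donor Tconv alone against host Tconv became 0 and host pTreg alone 1. With the 10 kb limit, the called regions and donor Treg alone became 0, donor Tconv alone 1 against either group, and iTreg alone 5. The called Fosb region lies 11533 bp from the gene end, so under this limit it was no longer a member region. Its own test was unchanged (Fisher's exact adjusted p = 0.0317). With iTreg left out, 1 region was called in conventional libraries, 2 genes higher and 4 widths wider in regulatory ones. Under the replicate block the call at Fosb ended (0 called, adjusted p = 0.0697); the numbers are those of the titles, which the descriptions contradict for some groups, and they do not pair the libraries (15 group pairs, correlations -0.38 to 0.208, 4 over 0.1). In bases as called, Jun became -21.2, Junb -19.9, Fos -1128 and Fosl2 -273 bp, where the median of all genes was -65.9 bp, against 1.87 per open Mb. Within BW13 Batf3 became -8.83. Leaving out 1 library each gave 0 to 1 called regions, 1 to 2 in donor Treg alone, 4 to 7 in donor Tconv alone, 14 to 23 in iTreg alone, 0 to 4 in host pTreg alone, 0 to 4 in host tTreg alone and 2 to 5 in donor Tconv against host Tconv; Fos ran from -9.85 (without host pTreg replicate 1; -1.60 without donor Tconv replicate 2) to 21.0, and Fosl2 from -2.73 (without host Tconv replicate 2) to 10.5. The causes were not tested. The other summary values (69, and 87 with 1 library left out) were counts equal to the main count or changed by a small factor. Those for joining peaks and overlap members were among them. An example is the 4 in donor Tconv alone against donor Treg, which became 6 without donor Tconv replicate 2. Presence in a list rests on unknown depth.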

Other observations

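Genes whose open bases per open Mb followed a member most closely over the 12 libraries were picked by Pearson's r among 8446 others with at least 3 regions (8447 for Junb). All genes of a library are divided by the same open length, which differed between libraries, so r is a description. For Batf they were Arhgap25 (r = 0.96) and Eif3f (0.96), and for Batf3 Lonrf3 (0.99) and Mecom (0.98). For Jun they were Vopp1 (0.94) and Fcho2 (0.92), and for Junb Ing1 (0.99) and Acbd5 (0.99). For Fos they were Irf1 (0.92) and Trim30a (0.85), for Fosb Gbp2b (0.99) and Dtnb (0.97), and for Fosl2 Cxcr5 (0.92) and Hnrnpll (0.91).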
